A study of Mus musculus with 33 samples.

Results

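The comparison described here sets Thy1-SSEA1+ cells against Thy1-SSEA1- cells sorted at the same day of the same arm of a reprogramming experiment. It holds 10 RNA libraries, of 30 in the series that could be matched to a value column of their own, and these form 5 pairs that share an arm and a day: days 8, 11 and 14 with Dppa2/4 overexpression, and days 8 and 11 of the control. Members were chosen from the sample titles alone, as libraries titled GFP-, Thy1- and SSEA1+ or SSEA1-, whatever their expression values. Earlier results of these data were known when this choice was made. The study used RNA sequencing and chromatin immunoprecipitation to examine how Dppa2 and Dppa4 act on transcription. All 10 populations came from primary mouse embryonic fibroblasts of embryos at 14 to 15 days post coitum, with the genotype Col1a1-OSKM+/-; Rosa26-rtTA+/-; Oct4-GFP+/- on a mixed B6 and 129S4 background. All had received lentivirus, were kept in 15% ESC-grade FBS with ESGRO, and were given doxycycline at 1 μg/ml, which induces Pou5f1, Sox2, Klf4 and Myc (OSKM) from the Col1a1 transgene. In the Dppa2/4 arm the overexpressed factors were Dppa2 and Dppa4, and the control arm is labelled control overexpression. The day in each title is the length of that treatment, and all 10 populations were negative for the Oct4-GFP reporter. Each combination of arm, day and gate is a single library, so a p-value here measures how alike the difference was over arms and days, not over repeats of a culture.

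Fibroblasts that are forced towards pluripotency by OSKM first lose the surface glycoprotein Thy1, and some of these cells then gain SSEA1, a fucosylated carbohydrate (Lewis X) that mouse embryonic stem cells display. Activation of the endogenous Oct4 locus, read out by GFP, usually comes later and in a minority of cells. Along this route mesenchymal genes are known to be silenced, epithelial genes to be switched on, and the pluripotency network, with Nanog and Esrrb at its core, to be rebuilt. Dppa2 and Dppa4 are small DNA-binding proteins of pluripotent cells that act as a pair.

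The depth implied by the smallest steps in the values was 30.9 to 42.7 M fragments in the Thy1-SSEA1+ libraries and 26.9 to 35.5 M in the Thy1-SSEA1- libraries, within 21.4 to 42.7 M over all 30 libraries. No 2 libraries held identical values. Across genes, the 10 libraries correlated at 0.79 to 0.95 on log2(FPKM + 1). Values are given as FPKM, which scales fragments by transcript length and by library size, and differences as Thy1-SSEA1+ minus Thy1-SSEA1- on log2(FPKM + 1) with the arm and day as a block. That scale understates the change of genes with low values. Values of the 5 libraries of a gate are always given in the order Dppa2/4 days 8, 11 and 14, then control days 8 and 11.

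Of 15249 genes with at least 1 FPKM in at least 2 of the 10 libraries, 1456 (9.55%) were higher and 1884 (12.4%) lower in Thy1-SSEA1+ cells at an adjusted p under 0.05 (limma, Benjamini-Hochberg over all genes tested). The median difference over all genes was 0.006. All 5 Thy1-SSEA1+ libraries lay above all 5 Thy1-SSEA1- libraries for 524 genes (3.44%), and below them for 866 (5.68%). Pluripotency, epithelial, replication and mitosis genes were among those that rose, while matrix, mesenchymal, TGF-beta, smooth muscle and MHC class I genes were among those that fell. These counts rested in part on single pairs: without the control day 11 pair 459 genes were higher and 797 lower. The 3 Dppa2/4 pairs alone gave 88 higher and 235 lower genes, and the control pairs alone gave 1245 and 2327. Without the block 366 were higher and 721 lower.

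**Figure D1:**
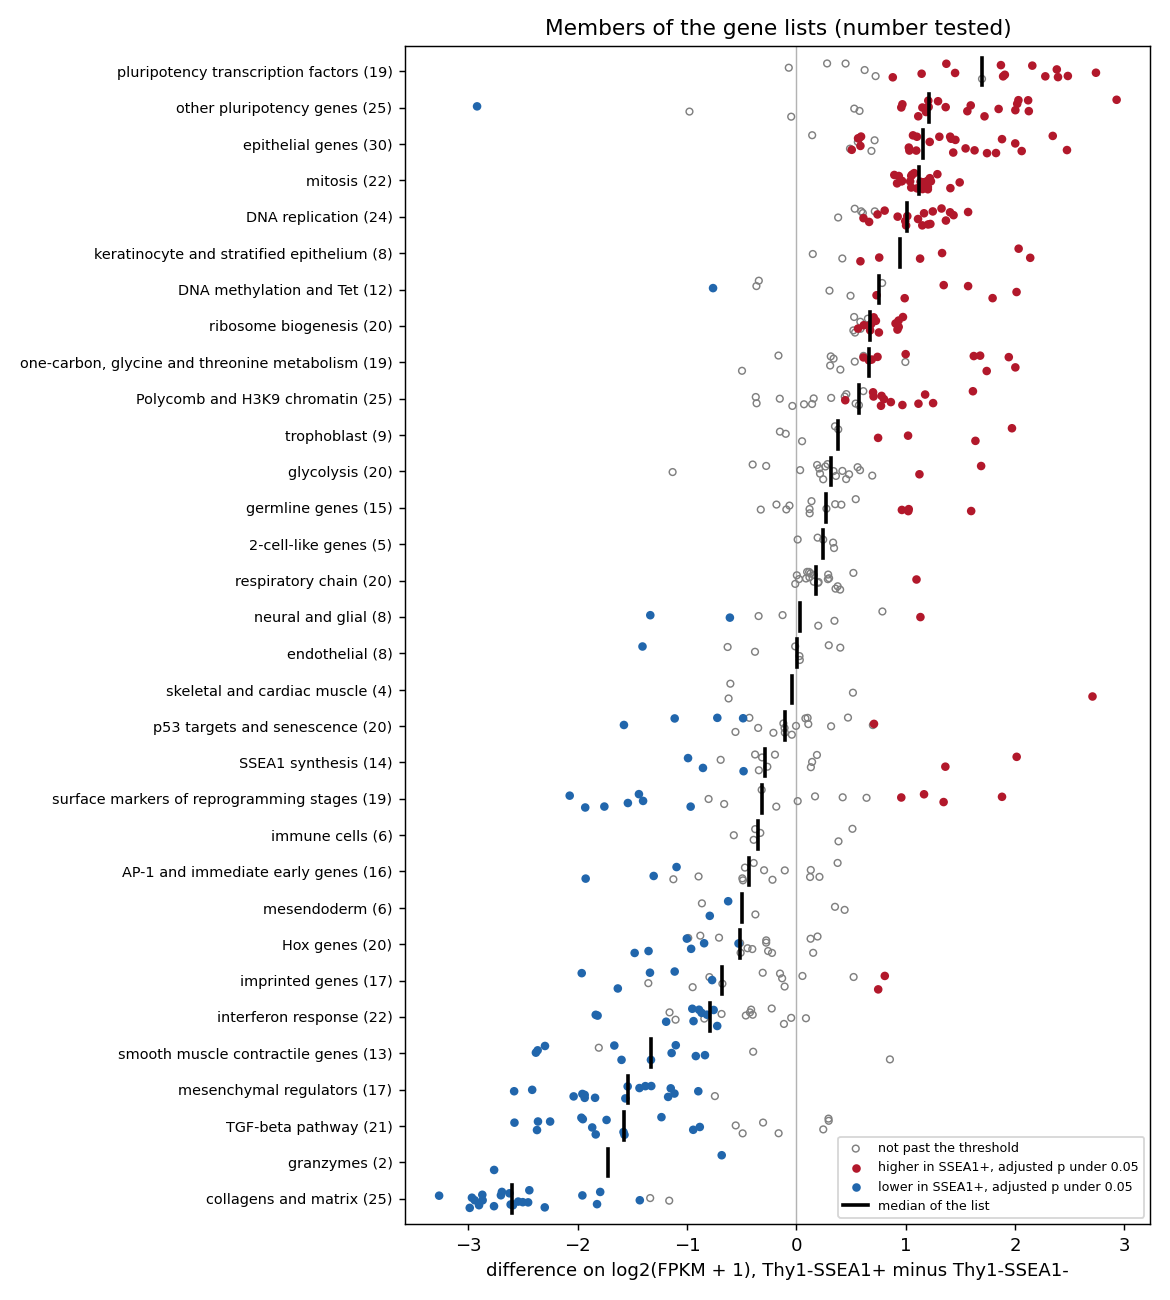
Difference on log2(FPKM + 1), Thy1-SSEA1+ minus Thy1-SSEA1-, for each tested member of 32 gene lists, 1 point per gene, ordered by the median of the list (black bar). Filled points passed an adjusted p of 0.05 and open points did not. The mitosis genes all lie to the right of 0 and the 25 collagens and matrix genes all lie to the left.

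The surface markers used for the sort were checked first. Thy1 (chr9:44043384-44048579, GRCm38), the antigen that defined both gates as negative, still differed between them: its FPKM was 10.3, 26.5, 11.9, 6.27 and 12.2 in Thy1-SSEA1+ cells, against 39.5, 47.9, 58.8, 52.8 and 47.9 in Thy1-SSEA1- cells. The groups did not overlap, and the difference was -1.93 (SE 0.28, adjusted p = 0.00714). Both gates lay below the 8 libraries of Thy1+SSEA1- cells, at 195 to 750 FPKM, and the Thy1-SSEA1+ range reached down to that of 5 GFP+ libraries, at 4.71 to 9.77 FPKM. In bulk populations such as these, fewer cells of a kind and less RNA per cell cannot be told apart, and this holds for every difference below.

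SSEA1 is a carbohydrate, so no single gene encodes it. Fut9 (chr4:25609332-25800244, minus strand), the fucosyltransferase that makes it in mouse stem cells, was higher in Thy1-SSEA1+ cells. Its FPKM was 5.26, 6.56, 15.3, 5.47 and 6.59 there, against 1.296, 1.71, 1.26, 0.281 and 0.951 in Thy1-SSEA1- cells, means of 7.84 ± 4.23 and 1.10 ± 0.53 (SD, n = 5 each). Every Thy1-SSEA1+ library exceeded every Thy1-SSEA1- library, by 2.02 (SE 0.24, adjusted p = 0.00523). B3gnt7, which extends the sugar chains that carry such epitopes, was also higher, at 13.9, 13.9, 11.9, 15.2 and 17.1 FPKM against 5.60, 3.92, 6.14, 5.63 and 3.90 FPKM in Thy1-SSEA1- cells. Its difference was 1.36 (SE 0.18, adjusted p = 0.00627), again without overlap. Fut4, another fucosyltransferase able to form the epitope, was at 0.252 to 1.15 FPKM in Thy1-SSEA1+ and 0.478 to 1.67 FPKM in Thy1-SSEA1- cells and did not pass (-0.26, SE 0.11, adjusted p = 0.139). Of the 14 synthesis genes tested, 2 were higher and 3 lower, the sialyltransferase St3gal6 (-0.99), the galactosyltransferase B4galt1 (-0.85) and Gmds (-0.48), which makes the fucose donor. The list had a median of -0.29. Among all genes 9.55% were higher and 12.4% lower.

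Among regulators of pluripotency, 13 of 19 tested transcription factors were higher in Thy1-SSEA1+ cells and none lower, with a median difference of 1.70, beside 9.55% and 12.4% of all genes. Sequence windows for 22 of the 34 pluripotency genes that were higher were at hand (64.7%), too few for a statement about the set. These 34 include Pou5f1 and Sox2, which the transgene also supplied. The octamer core ATGCAAA, the motif bound by Oct4 (Pou5f1), was searched on both strands in the 300-base RefSeq windows of GRCm38.p6 around gene starts. It stood in 4 of these 22, those of Nanog, Sox2, Zfp42 and Zfp296, and in 4.63% of all 32851 windows. The 250 bases before each of these starts are printed because they carry that match, in capitals (TTTGCAT where it lies on the other strand), with Col3a1 as a matrix gene that fell and holds it too. For Nanog RefSeq lists 2 starts, and the window of the upstream one is printed; the same match lies 151 bases before the other. A match describes the letters and does not mark a bound site. A gene was counted if any of its windows matched, whereas the 4.63% is over single windows, so these are unlike measures.
Nanog, chr6:122707239-122707488, plus strand, match 75 bases before the start: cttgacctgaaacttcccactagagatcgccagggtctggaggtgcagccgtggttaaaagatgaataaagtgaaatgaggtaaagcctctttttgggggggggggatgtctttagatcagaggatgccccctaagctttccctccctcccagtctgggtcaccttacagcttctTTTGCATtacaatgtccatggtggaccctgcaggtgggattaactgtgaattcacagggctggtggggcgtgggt
Sox2, chr3:34649745-34649994, plus strand, match 99 bases before the start: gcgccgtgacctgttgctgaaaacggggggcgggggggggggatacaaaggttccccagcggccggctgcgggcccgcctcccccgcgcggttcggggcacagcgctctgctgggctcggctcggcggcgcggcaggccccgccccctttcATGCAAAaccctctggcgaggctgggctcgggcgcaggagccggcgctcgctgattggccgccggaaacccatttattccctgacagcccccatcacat
Zfp42, chr8:43307010-43307259, minus strand, match 185 bases before the start: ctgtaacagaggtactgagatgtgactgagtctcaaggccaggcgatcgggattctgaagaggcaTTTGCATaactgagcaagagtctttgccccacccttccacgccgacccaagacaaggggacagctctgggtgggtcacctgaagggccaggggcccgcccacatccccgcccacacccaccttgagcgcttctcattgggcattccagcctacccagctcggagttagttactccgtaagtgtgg
Zfp296, chr7:19577037-19577286, plus strand, match 110 bases before the start: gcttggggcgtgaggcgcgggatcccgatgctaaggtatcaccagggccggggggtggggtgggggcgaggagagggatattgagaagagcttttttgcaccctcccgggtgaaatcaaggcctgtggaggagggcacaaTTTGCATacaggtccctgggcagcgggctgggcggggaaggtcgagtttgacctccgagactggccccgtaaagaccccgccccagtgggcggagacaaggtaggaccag
Col3a1, chr1:45311288-45311537, plus strand, match 148 bases before the start: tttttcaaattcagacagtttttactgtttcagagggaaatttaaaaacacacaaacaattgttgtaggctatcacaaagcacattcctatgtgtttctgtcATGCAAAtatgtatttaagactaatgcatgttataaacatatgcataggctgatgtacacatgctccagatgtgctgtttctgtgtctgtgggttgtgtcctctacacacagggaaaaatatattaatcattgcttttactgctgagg

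Nanog (chr6:122707489-122714633), a core factor of the stem cell state that is not part of OSKM, had 123, 104, 74.1, 232 and 209 FPKM in Thy1-SSEA1+ cells, against 21.7, 16.4, 10.9, 29.4 and 24.2 FPKM in Thy1-SSEA1- cells. The lowest Thy1-SSEA1+ library was above the highest Thy1-SSEA1- library, and the difference of 2.74 (SE 0.13, adjusted p = 0.00125) had the same sign in all 5 pairs. Esrrb, an orphan nuclear receptor of the same network, had 12.1, 22.9, 21.4, 62.6 and 82.0 FPKM, against 3.05, 3.63, 4.50, 6.17 and 8.11 FPKM in Thy1-SSEA1- cells, a difference of 2.48 (SE 0.26, adjusted p = 0.00464). Here too the gates did not overlap. Zfp42 (Rex1), a late marker of the naive state, had 1.18, 9.79, 17.7, 14.9 and 15.3 FPKM, against 1.02, 4.95, 4.06, 2.77 and 3.29 FPKM in Thy1-SSEA1- cells. The day 8 pair of the Dppa2/4 arm was nearly level, and the difference over all pairs was 1.37 (SE 0.32, adjusted p = 0.0265). Other factors that were higher included Zscan10 (2.39), Mybl2 (2.38), Nr0b1 (2.28), Utf1 (2.16), Sall4 (1.91), Prdm14 (1.89), Tfcp2l1 (1.87), Klf2 (1.15) and Zfp296 (0.88). Nr5a2, a nuclear receptor that can replace Oct4 in reprogramming, did not pass, with 0.378, 1.27, 1.72, 23.9 and 16.1 FPKM against 0.0790, 0.510, 0.288, 1.05 and 1.35 FPKM in Thy1-SSEA1- cells (1.70, adjusted p = 0.0566). Klf5, Tbx3, Rarg, Otx2 and Pou3f1 did not pass either, at -0.07 to 0.73.

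The reprogramming factors themselves were carried by the transgene, and a gene-level FPKM cannot separate transgene from endogenous transcripts. Pou5f1 had 491, 312, 315, 789 and 911 FPKM in Thy1-SSEA1+ cells, against 285, 95.8, 78.6, 382 and 339 FPKM in Thy1-SSEA1- cells. Each pair had the higher value in the Thy1-SSEA1+ library, although the gates overlapped across arms, and the difference was 1.39 (SE 0.19, adjusted p = 0.00696). Sox2 was higher by 1.92 (SE 0.26, adjusted p = 0.00671), at 10.9, 28.4, 32.4, 69.2 and 74.7 FPKM against 5.20, 9.44, 6.28, 13.6 and 10.7 FPKM in Thy1-SSEA1- cells. Klf4 did not pass, at 29.5, 21.2, 10.6, 50.4 and 61.8 FPKM against 21.2, 20.1, 9.39, 32.6 and 24.97 FPKM in Thy1-SSEA1- cells (0.51, SE 0.19, adjusted p = 0.102), though the Thy1-SSEA1+ library had the larger value in all 5 pairs. Myc did not pass, with a difference of 0.17 (SE 0.21, adjusted p = 0.585).

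Of 25 other pluripotency genes tested, 19 were higher, 1 was lower and the median was 1.21, beside 9.55% higher and 12.4% lower among all genes. Tdgf1, the Nodal co-receptor Cripto, had 81.2, 134, 248, 293 and 252 FPKM in Thy1-SSEA1+ cells, against 15.0, 31.4, 37.98, 16.4 and 21.8 FPKM in Thy1-SSEA1- cells. It differed by 2.93 (SE 0.30, adjusted p = 0.00464) with no overlap. Alpl, the alkaline phosphatase stained in stem cell colonies, had 96.2, 95.5, 143, 67.5 and 116 FPKM, against 32.6, 17.0, 27.5, 21.5 and 23.4 FPKM in Thy1-SSEA1- cells, a difference of 2.03 (SE 0.18, adjusted p = 0.00402). The Nodal antagonist Lefty2 (2.02), the growth factor Fgf4 (1.72) and the ligands Nodal (1.21) and Gdf3 (1.15) were higher as well. The late markers Dppa5a (2.12) and Dppa3 (2.13) were higher, but both were nearly level in the day 8 pair of the Dppa2/4 arm, where Dppa5a had 12.6 and 11.6 FPKM and Dppa3 had 1.81 and 1.33 FPKM in Thy1-SSEA1+ and Thy1-SSEA1- cells. Spp1 was the exception. This gene encodes the secreted protein osteopontin and had 167, 1972, 1217, 102 and 481 FPKM in Thy1-SSEA1+ cells, against 2175, 5685, 6926, 1885 and 3061 FPKM in Thy1-SSEA1- cells. It was lower by -2.92 (SE 0.38, adjusted p = 0.0062), and it was one of the most abundant RNAs of the list.

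**Figure D2:**
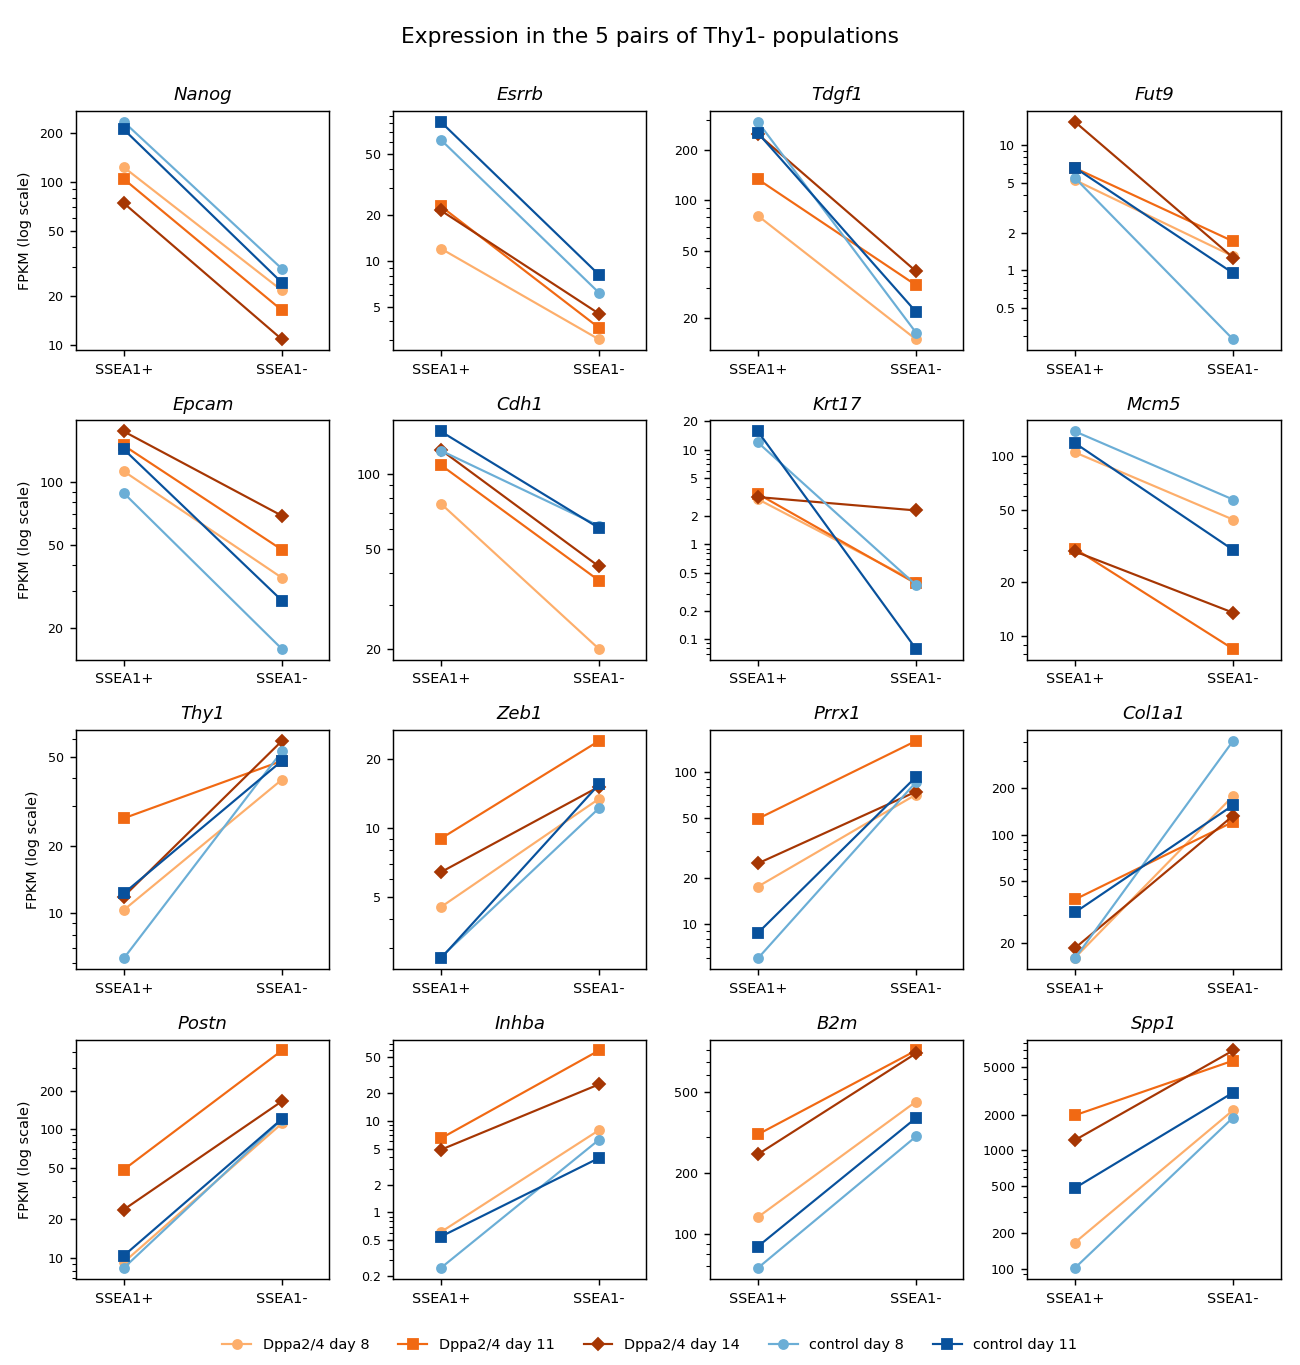
FPKM on a log axis of 16 genes in the 5 pairs, with the Thy1-SSEA1+ library left and the Thy1-SSEA1- library right; each line joins the libraries of 1 arm and day (orange shades Dppa2/4, blue shades control). Lines slope down for Nanog, Fut9 and Epcam and up for Thy1, Postn and B2m in all 5 pairs.

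Epithelial genes were higher as a group: 25 of 30 tested passed upward and none downward, with a median of 1.16. The shares over all genes were 9.55% upward and 12.4% downward. Epcam (chr17:87635979-87651129), an epithelial adhesion molecule, had 113, 150, 175, 88.6 and 144 FPKM in Thy1-SSEA1+ cells, against 34.8, 47.4, 68.9, 15.9 and 27.1 FPKM in Thy1-SSEA1- cells. The means were 134 ± 33.6 and 38.8 ± 20.4 FPKM (SD, n = 5 each), the gates did not overlap, and the difference was 1.88 (SE 0.19, adjusted p = 0.00464). Cdh1, E-cadherin, had 76.1, 108, 125, 124 and 148 FPKM, against 20.0, 37.5, 42.6, 62.0 and 60.8 FPKM in Thy1-SSEA1- cells, a difference of 1.44 (SE 0.15, adjusted p = 0.00464). Esrp1, a splicing factor that sets epithelial isoforms, differed by 2.35, and Ap1m2, a sorting adaptor of polarized cells, by 2.48, both with no overlap. The tight junction claudins Cldn6 (2.00), Cldn4 (1.83) and Cldn7 (1.74) and the regulators Grhl2 (1.42) and Ovol2 (1.10) were higher. Krt8, a keratin of simple epithelia, was higher (1.31, adjusted p = 0.034), whereas its partner Krt18 had 48.7, 138, 210, 11.5 and 24.3 FPKM against 37.97, 115, 308, 9.96 and 17.1 FPKM in Thy1-SSEA1- cells and did not pass (0.15, adjusted p = 0.573). Ocln, Cldn3, Krt19 and Pkp3 were the others that did not pass, at 0.49 to 0.72.

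Of 17 genes of keratinocytes and stratified epithelium, 8 were expressed enough to be tested and 6 of these were higher, beside 9.55% of all genes. Krt17 had 2.998, 3.41, 3.15, 11.9 and 15.6 FPKM in Thy1-SSEA1+ cells, against 0.402, 0.386, 2.28, 0.372 and 0.0787 FPKM in Thy1-SSEA1- cells (2.14, SE 0.51, adjusted p = 0.0285). The gates did not overlap, and the day 14 pair was closest. Sfn, the 14-3-3 protein of stratified epithelia, was higher by 2.03 (SE 0.34, adjusted p = 0.0106), and Krt6a (1.13), Ly6d (1.33), Krt16 (0.76) and Perp (0.59) passed too. The basal keratins Krt5 and Krt14 stayed at or under 1.25 FPKM in all 10 libraries and were not tested. Keratin genes have close relatives and pseudogenes among which reads could be split.

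The mesenchymal regulators went the other way, with 16 of 17 tested lower, none higher and a median of -1.54, beside 12.4% lower among all genes. Prrx1, a homeobox factor of limb and connective tissue mesenchyme, had 17.6, 49.1, 24.98, 5.93 and 8.71 FPKM in Thy1-SSEA1+ cells, against 70.8, 160, 74.0, 85.6 and 92.6 FPKM in Thy1-SSEA1- cells. It differed by -2.42 (SE 0.35, adjusted p = 0.00725), with no overlap. Zeb1, a repressor of Cdh1, had 4.52, 8.99, 6.42, 2.73 and 2.70 FPKM, against 13.4, 24.0, 15.2, 12.2 and 15.5 FPKM in Thy1-SSEA1- cells (-1.56, SE 0.19, adjusted p = 0.00523). The other repressors of the epithelial state were lower as well, Snai2 by -2.04, Twist2 by -1.96, Twist1 by -1.94, Zeb2 by -1.54 and Snai1 by -1.11. Cdh11, a cadherin of mesenchymal cells, was the most reduced of the list at -2.58 (SE 0.29, adjusted p = 0.00506), and Osr2 was the only tested member that did not pass (-0.74).

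Collagen and matrix genes had the lowest median among the 32 lists, -2.60: 23 of 25 were lower and 20 showed no overlap between gates. Over all genes tested 12.4% were lower, and 5.68% lay lower with no overlap. Postn (chr3:54361109-54391037), the matrix protein periostin, had 9.28, 48.7, 23.8, 8.38 and 10.4 FPKM in Thy1-SSEA1+ cells, against 111, 410, 165, 119 and 120 FPKM in Thy1-SSEA1- cells. Its difference was -3.27 (SE 0.16, adjusted p = 0.00125). Col1a1, the main fibrillar collagen, had 15.9, 38.1, 18.4, 15.8 and 31.4 FPKM, against 178, 121, 133, 405 and 155 FPKM in Thy1-SSEA1- cells (-2.94, SE 0.40, adjusted p = 0.00667). The OSKM cassette of these cells was placed at the Col1a1 locus, and whether that touches the Col1a1 value was not tested. Col3a1, of which the promoter is printed above, had 17.4, 76.3, 31.0, 11.1 and 34.0 FPKM, against 257, 159, 164, 344 and 257 FPKM in Thy1-SSEA1- cells (-2.99, SE 0.50, adjusted p = 0.0106). The collagen-crosslinking oxidase Lox was lower by -2.97, Bgn by -2.87, Tnc by -2.70 and fibronectin, Fn1, by -1.43. Summed over the list, Thy1-SSEA1+ libraries had 998, 2391, 1590, 545 and 888 FPKM, against 4853, 6484, 5381, 5960 and 4956 FPKM in Thy1-SSEA1- libraries. The Thy1-SSEA1+ library of Dppa2/4 day 11 had the highest matrix sum and the highest Thy1 value of its gate, and its pair had the smallest matrix median of the 5, -1.12, against -2.31 to -3.89 in the others. Without that pair, 1043 genes of the whole table were higher and 1620 lower.

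Contractile genes of smooth muscle and myofibroblasts were lower in 10 of 13 cases with a median of -1.33, where 12.4% of all genes were lower. Acta2, smooth muscle actin, had 39.1, 108, 49.9, 39.4 and 24.5 FPKM in Thy1-SSEA1+ cells, against 167, 207, 259, 461 and 208 FPKM in Thy1-SSEA1- cells, a difference of -2.38 (SE 0.35, adjusted p = 0.00774). Tagln, transgelin, was lower by -2.37. In the TGF-beta pathway, a driver of the mesenchymal state, 14 of 21 genes were lower, none higher, and the median was -1.57. The ligands Tgfb3 (-1.95), Tgfb1 (-1.83) and Tgfb2 (-1.58) and the receptors Tgfbr3 (-1.97) and Tgfbr2 (-1.87) were lower, while the receptor Tgfbr1 did not pass (-0.49, adjusted p = 0.17). Inhba, an activin subunit, had 0.61, 6.45, 4.84, 0.247 and 0.544 FPKM in Thy1-SSEA1+ cells, against 7.93, 58.9, 25.1, 6.23 and 3.93 FPKM in Thy1-SSEA1- cells (-2.37, SE 0.21, adjusted p = 0.00403). These gates overlapped across arms and days, though every pair had the lower value in the Thy1-SSEA1+ library. The inhibitors Smad7 (0.25) and Skil (0.30) did not pass.

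**Figure D3:**
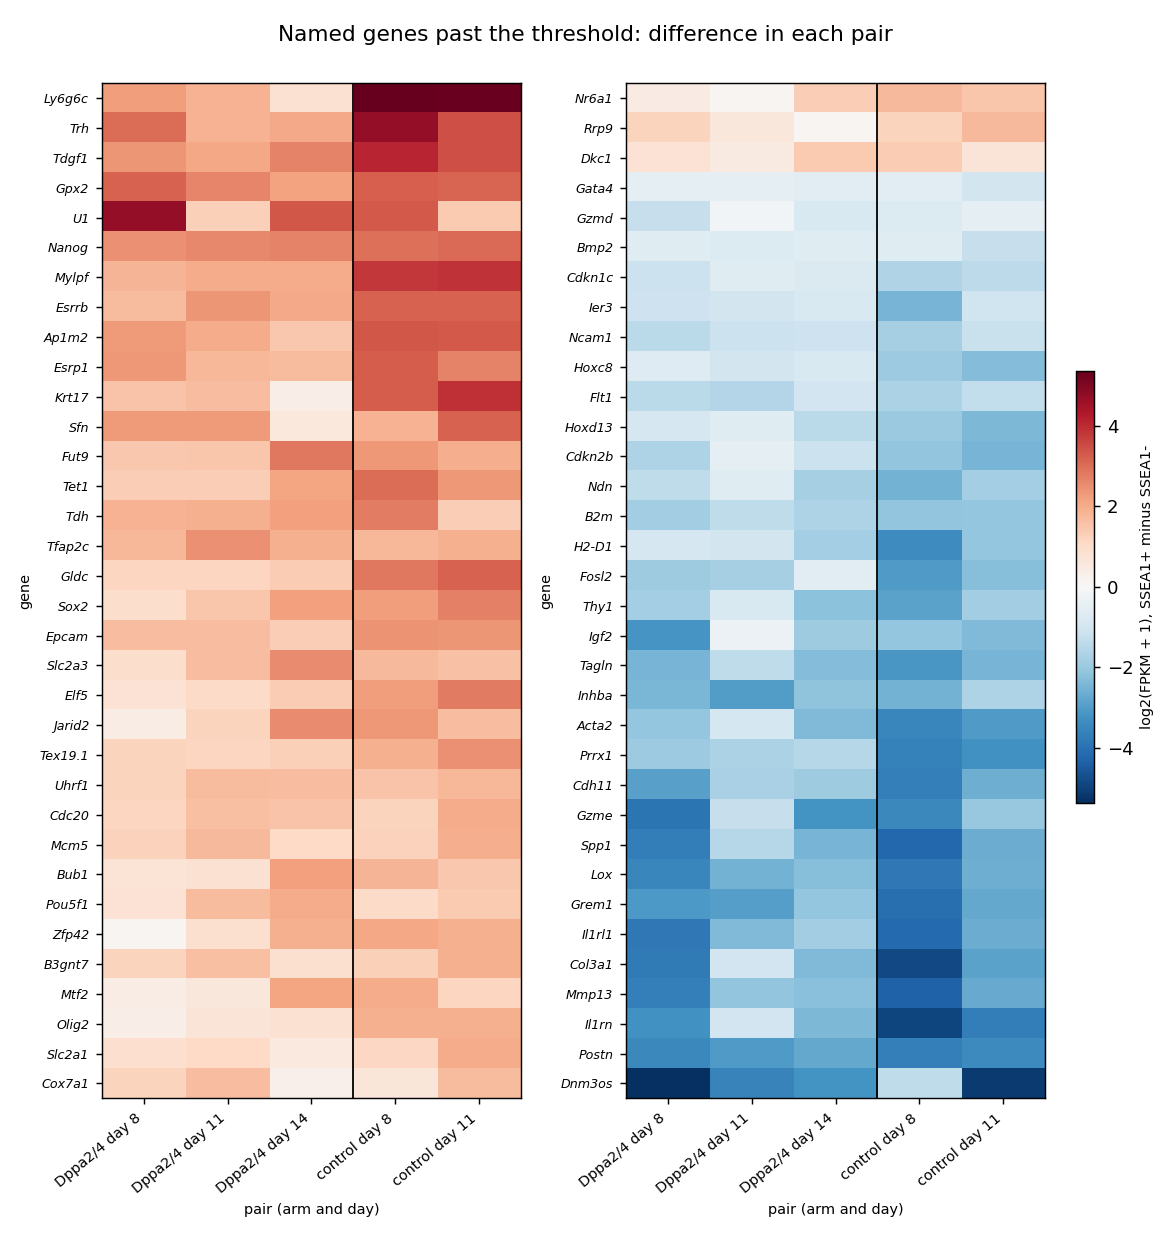
Difference on log2(FPKM + 1), Thy1-SSEA1+ minus Thy1-SSEA1-, of 68 named genes past the threshold in each pair, Dppa2/4 pairs left of the line and control pairs right of it; red is higher and blue lower in Thy1-SSEA1+. The control columns hold most of the deepest colours, as for Ly6g6c and Krt17, while Dnm3os is deepest in the Dppa2/4 day 8 column.

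Of 19 surface proteins used to stage reprogramming, 4 were higher and 7 lower, beside 9.55% and 12.4% of all genes. Besides Epcam, the receptor Kit (1.35), Cdcp1 (1.17) and the adhesion molecule Pecam1 (0.96) were higher. Cd44, a hyaluronan receptor of fibroblasts, had 45.6, 56.7, 49.1, 13.8 and 12.5 FPKM in Thy1-SSEA1+ cells, against 106, 203, 85.2, 68.0 and 89.5 FPKM in Thy1-SSEA1- cells, a difference of -1.75 (SE 0.29, adjusted p = 0.01) with no overlap. Cd34 (-2.07), Ly6a (-1.54), Pdpn (-1.44), Itgb1 (-1.40) and Cd47 (-0.97) were the other lower genes besides Thy1. Icam1, another staging marker, did not pass (-0.80). In the day 11 pair of the Dppa2/4 arm Cd34 ran against the rest, with 150 FPKM in Thy1-SSEA1+ and 120 FPKM in Thy1-SSEA1- cells.

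Proliferation genes were higher. All 22 mitosis genes tested were higher, with a median of 1.12 and a range of 0.90 to 1.49, and 14 showed no overlap. For this and the next 2 lists, 9.55% of all genes were higher, and 3.44% lay higher with no overlap. Cdc20, an activator of the anaphase-promoting complex, had 283, 152, 137, 301 and 342 FPKM in Thy1-SSEA1+ cells, against 127, 48.4, 47.2, 131 and 86.4 FPKM in Thy1-SSEA1- cells (1.49, SE 0.15, adjusted p = 0.00464). Of 24 DNA replication genes 19 were higher and none lower (median 1.01). Mcm5, a subunit of the replicative helicase, had 104, 30.6, 29.5, 136 and 118 FPKM, against 44.3, 8.51, 13.5, 57.2 and 30.1 FPKM in Thy1-SSEA1- cells, so that in both gates the Dppa2/4 libraries of days 11 and 14 were lowest. Pcna did not pass (0.61, adjusted p = 0.0599). Ribosome biogenesis genes were higher in 13 of 20 cases (median 0.68), led by Rrp9 (0.98) and the pseudouridine synthase Dkc1 (0.94).

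Among 20 genes of the p53 response and senescence, 1 was higher and 4 lower, with a median of -0.11, beside 9.55% and 12.4% of all genes. The cell cycle inhibitors Cdkn2b (-1.58), Cdkn1c (-1.11) and Cdkn1a (-0.72) and Ccng1 (-0.49) were lower, while Trp53 itself, p53, was higher (0.71, adjusted p = 0.0128). Cdkn2a did not pass, at 26.8, 36.4, 29.7, 23.2 and 42.1 FPKM against 29.1, 21.9, 66.3, 63.1 and 48.2 FPKM in Thy1-SSEA1- cells. Of 16 AP-1 and immediate early genes 3 were lower, Fosl2 (-1.93), Ier3 (-1.30) and the phosphatase Dusp1 (-1.09). Fos (-0.49) and Jun (-0.89) did not pass.

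Several regulators of DNA methylation and chromatin were higher. Tet1, which oxidizes methylcytosine, had 7.08, 7.56, 12.5, 27.8 and 22.5 FPKM in Thy1-SSEA1+ cells, against 2.20, 2.41, 2.15, 2.60 and 3.74 FPKM in Thy1-SSEA1- cells, with no overlap (2.01, SE 0.27, adjusted p = 0.00661). Dnmt3l (1.79), Uhrf1 (1.57), Dnmt3b (1.35), Dnmt1 (0.99) and Tdg (0.73) were also higher, and Mbd2, which binds methylated DNA, was lower (-0.76), so that 6 of 12 genes rose and 1 fell. Among 25 Polycomb and H3K9 genes 12 were higher and none lower (median 0.57). Both lists are to be read beside 9.55% higher and 12.4% lower among all genes. Jarid2, a cofactor of Polycomb repressive complex PRC2, had 35.9, 54.0, 64.0, 83.8 and 78.7 FPKM, against 27.3, 23.0, 10.3, 15.8 and 24.5 FPKM in Thy1-SSEA1- cells (1.61, SE 0.32, adjusted p = 0.0159). The PRC2 members Mtf2 (1.25), Ezh2 (1.12) and Suz12 (0.86) were higher, whereas the catalytic paralog Ezh1 (-0.37) and Ring1 (-0.15) did not pass.

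In metabolism, 10 of 19 genes of one-carbon, glycine and threonine metabolism were higher and none lower (median 0.66). Tdh, threonine dehydrogenase, on which mouse stem cells depend, had 4.38, 7.17, 4.27, 44.4 and 26.2 FPKM in Thy1-SSEA1+ cells, against 0.476, 1.18, 0.1599, 5.83 and 9.82 FPKM in Thy1-SSEA1- cells (2.00, SE 0.21, adjusted p = 0.00474). Gldc (1.94) and Amt (1.74) of the glycine cleavage system, Mthfd1 (1.68) and Shmt1 (1.62) were higher too. The 2 glycolysis genes that passed, of 20 tested, were glucose transporters, and this share is near the 9.55% higher among all genes. Slc2a3 had 504, 1014, 1190, 1152 and 1312 FPKM, against 261, 320, 207, 341 and 440 FPKM in Thy1-SSEA1- cells (1.69, SE 0.22, adjusted p = 0.0062), and Slc2a1 was higher by 1.13. The other 18 of 20 did not pass. Of 20 respiratory chain genes 1, Cox7a1 (1.09), was higher, a share below the 9.55% of all genes.

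MHC class I and interferon genes were lower in 10 of 22 cases, none was higher, and the median was -0.79. This stands beside 12.4% lower and 9.55% higher among all genes. B2m, the light chain of MHC class I, had 121, 308, 246, 68.2 and 87.0 FPKM in Thy1-SSEA1+ cells, against 446, 795, 769, 301 and 371 FPKM in Thy1-SSEA1- cells (-1.82, SE 0.15, adjusted p = 0.00402). The heavy chain H2-D1 was lower by -1.83 (SE 0.36, adjusted p = 0.0155) and H2-K1 by -0.72 (adjusted p = 0.0366), although near-identical class I genes may share reads. Irf7 (-0.87), a transcription factor of the interferon response, passed. Isg15 did not, with 18.2, 6.34, 4.54, 0.215 and 2.45 FPKM against 51.1, 25.7, 18.7, 1.95 and 1.26 FPKM in Thy1-SSEA1- cells (-1.16, SE 0.37, adjusted p = 0.0658).

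Most positional and imprinted genes did not pass. Of 20 Hox genes and cofactors tested 6 were lower, none was higher and 14 did not pass, beside 12.4% lower and 9.55% higher among all genes. Hoxd13 (-1.48) and Hoxc8 (-1.35) were among the lower ones. Of 17 imprinted genes 5 were lower, 2 higher and 10 did not pass, and the higher share is near that of all genes. Of these, Igf2, a fetal growth factor, was lower (-1.96, SE 0.37, adjusted p = 0.0142), as were Ndn (-1.63), Airn (-1.34), Cdkn1c (-1.11) and Rian (-0.77), while Peg10 (0.81) and Peg3 (0.75) were higher. Airn runs antisense to Igf2r, and a strand setting is not given in the sources used here. The granzyme gene Gzme, a serine protease, had 2.11, 12.1, 5.27, 1.97 and 3.13 FPKM in Thy1-SSEA1+ cells, against 45.5, 29.7, 56.2, 31.9 and 15.7 FPKM in Thy1-SSEA1- cells (-2.76, SE 0.40, adjusted p = 0.00717). The neighbouring granzymes are near-identical copies, so this value is uncertain as to the gene, and of 10 genes of the family list only Gzme and Gzmd were tested.

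Markers of other lineages were checked as well, to be read beside 9.55% higher and 12.4% lower among all genes. Of 9 tested trophoblast genes 4 were higher: Tfap2c (1.97), Elf5 (1.64), Esx1 (1.02) and Tead4 (0.75), with Tfap2c at 13.4, 26.1, 18.0, 54.9 and 60.7 FPKM against 3.18, 3.94, 4.02, 15.1 and 15.5 FPKM in Thy1-SSEA1- cells. The trophoblast sum was 41.5 to 103 FPKM in Thy1-SSEA1+ and 28.3 to 66.7 FPKM in Thy1-SSEA1- libraries, and Cdx2, Ascl2, Plac1, Tpbpa and Prl3d1 did not reach the filter. Of 15 tested germline genes Tex19.1 (1.60), Nr6a1 (1.03), Tdrd12 (1.02) and Piwil2 (0.97) were higher and none lower. None of 5 tested 2-cell-like genes passed (0.01 to 0.35). In mesendoderm Bmp2 (-0.79) and Gata4 (-0.62) were lower, and in the neural list Olig2 (1.14) was higher and Ncam1 (-1.33) and Nes (-0.61) were lower. Flt1 (-1.41) was the 1 called gene of 8 endothelial ones. No immune gene of 6 tested passed, the pan-leukocyte gene Ptprc reached at most 0.0789 FPKM, and the immune sum was 8.37 to 88.8 FPKM in Thy1-SSEA1+ and 11.2 to 40.3 FPKM in Thy1-SSEA1- libraries. In the muscle list Mylpf, a fast myosin light chain, was higher by 2.70 (SE 0.37, adjusted p = 0.00671), while Myod1 and Myog did not reach the filter.

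Outside the lists, the highest-ranking protein-coding genes were led by Ly6g6c, a Ly6 family protein, with 17.5, 12.3, 22.9, 54.7 and 46.0 FPKM in Thy1-SSEA1+ cells, against 2.96, 2.65, 12.5, 0.383 and 0.170 FPKM in Thy1-SSEA1- cells (3.11, SE 0.73, adjusted p = 0.0268). Trh, the precursor of thyrotropin-releasing hormone, had 205, 118, 63.6, 722 and 573 FPKM, against 24.7, 31.5, 14.6, 26.1 and 51.0 FPKM in Thy1-SSEA1- cells (3.03, SE 0.41, adjusted p = 0.00664). The glutathione peroxidase Gpx2 was higher by 2.85 (SE 0.20, adjusted p = 0.00402). The other features at the top, CT010480.1 and U1, are small or unannotated RNAs listed at 0 in some libraries. On the lower side stood Dnm3os (-3.74), an RNA antisense to Dnm3, the interleukin-1 receptor antagonist Il1rn (-3.07), the collagenase Mmp13 (-3.02), the interleukin-33 receptor Il1rl1 (-2.99) and the BMP antagonist Grem1 (-2.98). Il1rn had 17.6, 63.0, 12.3, 13.6 and 24.1 FPKM in Thy1-SSEA1+ cells, against 175, 130, 70.3, 448 and 325 FPKM in Thy1-SSEA1- cells, with no overlap.

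Set beside the other sorted populations, the levels in Thy1-SSEA1+ cells were intermediate for some genes and outermost for others. These levels are given as a description: 6 Thy1-SSEA1+ libraries (the 5 above and an unpaired control day 14 library), 5 GFP+ and 8 Thy1+SSEA1- libraries share arms and days only in part. Nanog was at 74.1 to 232 FPKM in the 5 paired Thy1-SSEA1+ libraries, 260 to 360 FPKM in GFP+ cells and 1.42 to 4.69 FPKM in Thy1+SSEA1- cells. Dppa5a, at 12.6 to 497 FPKM in the paired Thy1-SSEA1+ libraries, reached 1422 to 3640 FPKM in GFP+ cells. The unpaired control day 14 Thy1-SSEA1+ library had 67.2 FPKM of Thy1, above the Thy1-SSEA1- values of every pair, and it entered no test. The description of the control day 11 GFP+ library names another gate, and its title was followed here.

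**Figure D4:**
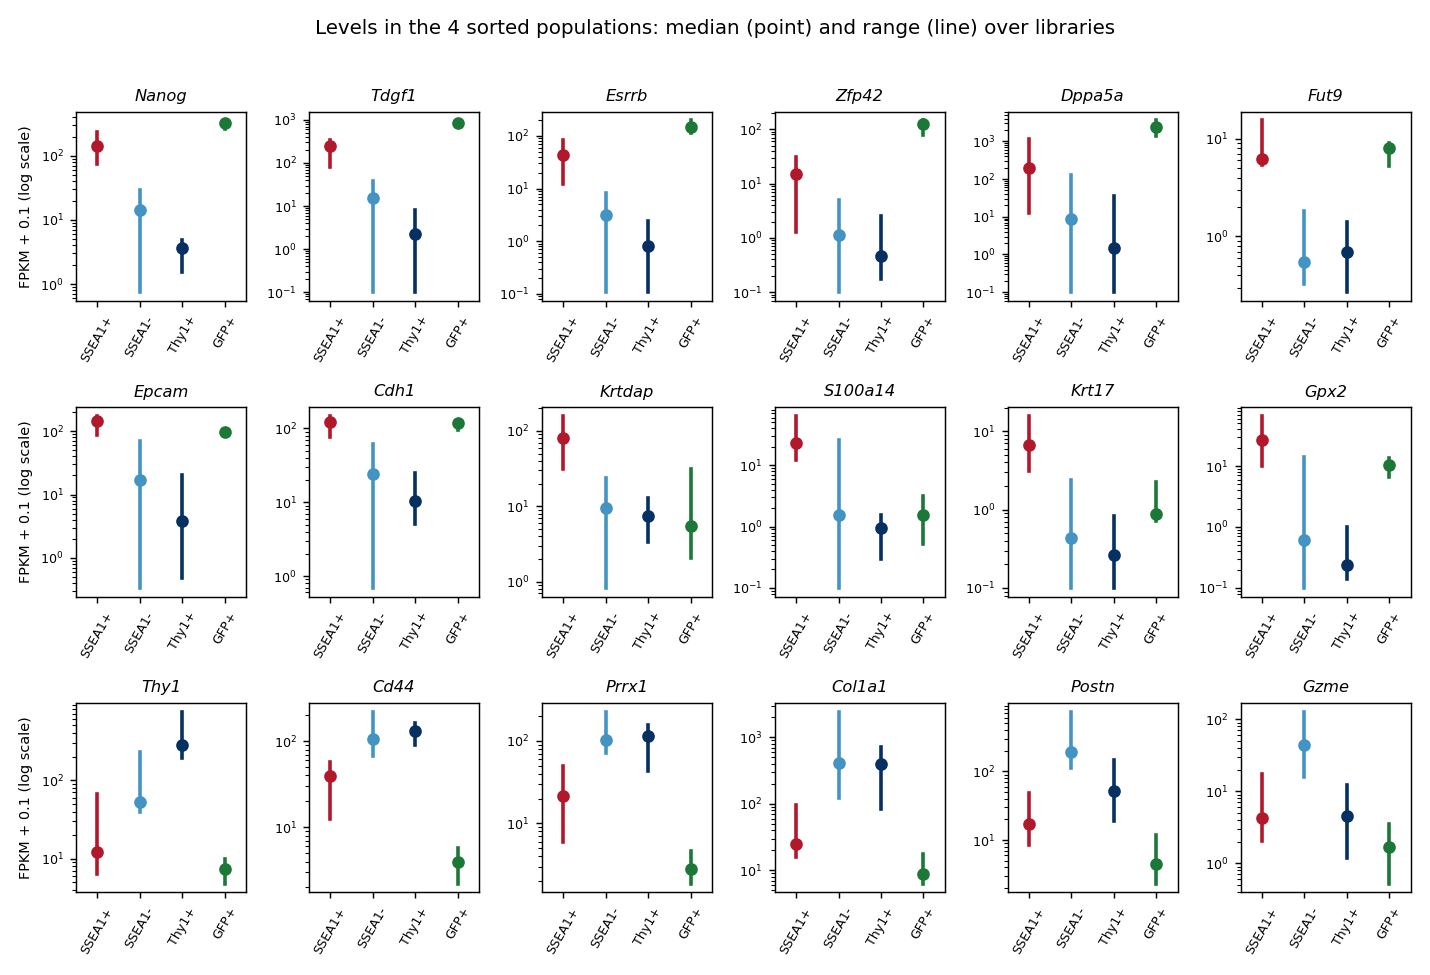
Median (point) and range (line) of FPKM + 0.1 on a log axis for 18 genes in Thy1-SSEA1+ (6 libraries), Thy1-SSEA1- (9, including days 2 and 4), Thy1+SSEA1- (8) and GFP+ (5) cells. Nanog and Esrrb are highest in GFP+ cells, while the ranges of S100a14 and Krt17 in Thy1-SSEA1+ cells lie above those in GFP+ cells.

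Whether the difference between gates depended on Dppa2/4 was tested as a difference between arms. Only the Dppa2/4 arm has a day 14 pair, so arm and day are in part mixed in this contrast. The spread of differences over all genes was smaller in the Dppa2/4 pairs, with SDs of 0.856, 0.852 and 0.924 on days 8, 11 and 14, against 1.14 and 1.06 in the control pairs of days 8 and 11. At 5 FPKM or more in the higher library, 108 (0.708%), 193 (1.27%) and 209 genes (1.37%) were at least 4-fold higher in the Dppa2/4 pairs, against 261 (1.71%) and 283 (1.86%) in the control pairs. At least 4-fold lower were 305 (2%), 141 (0.925%) and 248 (1.63%) in the Dppa2/4 pairs, against 787 (5.16%) and 486 (3.19%) in the control pairs. The medians of 27 of the 32 lists were closer to 0 with Dppa2/4. Pluripotency factors had 0.96 with Dppa2/4 and 2.20 in the control, matrix genes -2.06 and -3.27, epithelial genes 0.97 and 1.53, and mitosis genes 1.04 and 1.25. The other 5 lists were farther from 0 with Dppa2/4. They were the interferon genes, at -0.86 with Dppa2/4 and -0.31 in the control, germline genes at 0.53 and 0.06, 2-cell-like genes at 0.42 and 0, mesendoderm genes at -0.54 and -0.35, and the 2 granzymes at -1.75 and -1.69. These medians are descriptions of 3 and 2 pairs.

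Gene by gene, 7 of 15249 differences between arms passed (0.0459%), 5 higher and 2 lower with Dppa2/4. In simulated data this test over all genes did not recover the differences it was given, so that genes that did not pass may still differ between arms. Among the 7, 1110032A04Rik (chr3:69819542-69859940, minus strand) was protein coding, with 19.6, 35.4, 27.8, 2.95 and 5.31 FPKM in Thy1-SSEA1+ cells, against 8.70, 8.27, 8.29, 44.7 and 94.2 FPKM in Thy1-SSEA1- cells. The Thy1-SSEA1+ library had the larger value in all 3 Dppa2/4 pairs and the smaller value in both control pairs (difference between arms 5.29, adjusted p = 0.0204). The other 6, among them Snord14a, Mir432 and U6, were small or unannotated RNAs listed at 0 in some libraries, for which a fold has no meaning.

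Fitted on the 12832 protein-coding genes alone, an alternative chosen after the data were seen, 207 genes (1.61%) had a higher and 76 (0.592%) a lower difference with Dppa2/4. Of these genes, 132 had negative differences in both arms, closer to 0 with Dppa2/4, and 50 had positive ones in both arms, also closer to 0 with Dppa2/4. Another 73 had a negative difference in the control and a smaller, positive one with Dppa2/4. In all, 276 of these 283 genes (97.5%) had a difference closer to 0 with Dppa2/4, where 71.8% of all 15249 genes did. The 283 were picked by these same differences, which spread more widely in the control pairs. Their share is therefore in part set by the choice. The 15249 also hold genes that are not protein coding. Nr5a2 (-2.56, adjusted p = 0.0207), Dppa3 (-2.25, adjusted p = 0.0474), Pou3f1 (-1.80), Nr0b1 (-1.74) and Prdm14 (-1.69) were pluripotency genes with a lower difference between gates in the Dppa2/4 arm than in the control arm, and Jam2 had a higher one (2.81). Prrx1 (1.74), Fbn1 (1.78), Col4a2 (1.94) and Ly6a (1.60) also had a higher one, and Gldc (-1.79) a lower one. Nanog, Fut9, Epcam and Thy1 did not differ between arms past the threshold in either fit.

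**Figure D5:**
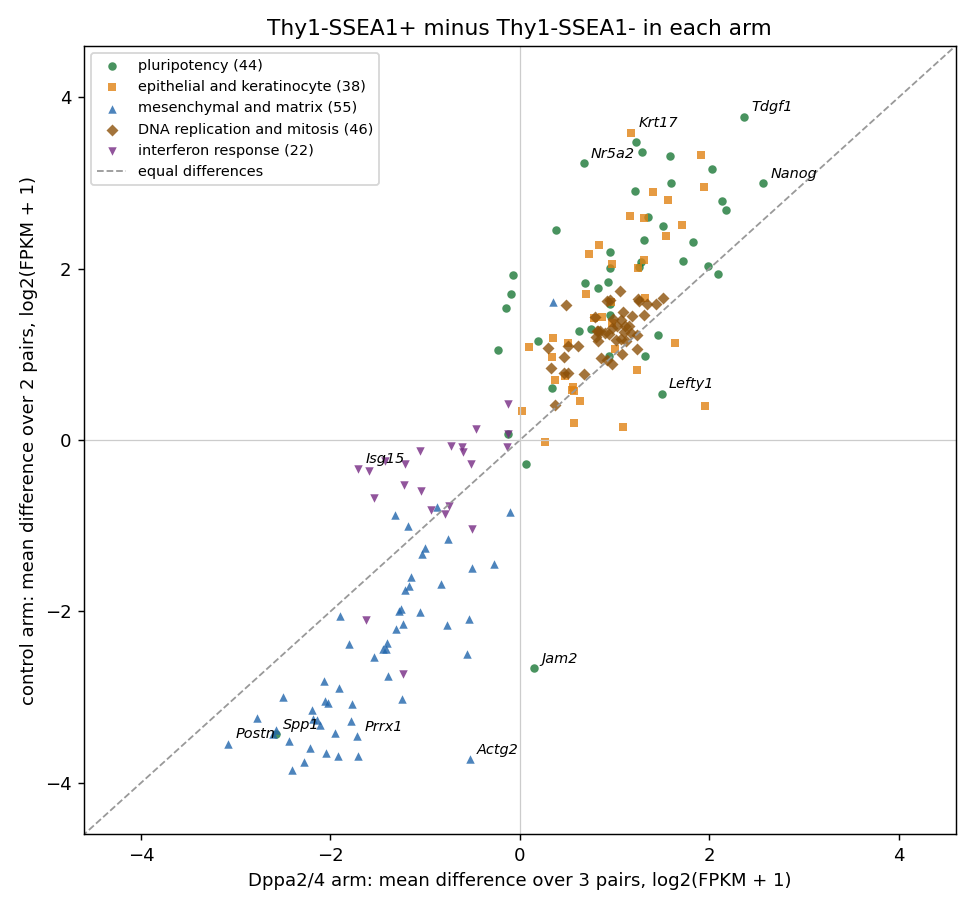
Mean difference between gates on log2(FPKM + 1) in the Dppa2/4 arm (3 pairs, x axis) and in the control arm (2 pairs, y axis) for members of 5 groups of lists; the dashed line marks equal differences. Most mesenchymal and matrix genes lie below the line and most pluripotency genes above it, which is the side of larger differences in the control arm.

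Dppa2 and Dppa4, the overexpressed factors, were set apart by arm. In the Dppa2/4 arm, days 8, 11 and 14, Dppa2 had 123, 43.2 and 114 FPKM in Thy1-SSEA1+ cells, against 182, 122 and 137 FPKM in Thy1-SSEA1- cells. In the control arm, days 8 and 11, it had 14.2 and 6.40 FPKM in Thy1-SSEA1+ cells, against 0.783 and 0.916 FPKM in Thy1-SSEA1- cells. The Thy1-SSEA1+ library had the smaller value in each Dppa2/4 pair and the larger value in each control pair. Dppa4 had 156, 47.8 and 125 FPKM, against 189, 117 and 172 FPKM in Thy1-SSEA1- cells, in the Dppa2/4 arm. In the control arm it had 8.10 and 7.23 FPKM in Thy1-SSEA1+ cells, against 0.584 and 0.727 FPKM in Thy1-SSEA1- cells. Over all genes the difference between arms did not pass for Dppa2 (-3.29, adjusted p = 0.142) or Dppa4 (-3.06, adjusted p = 0.136), while both passed among protein-coding genes alone (adjusted p = 0.0208 and 0.0201). Lentiviral and endogenous transcripts cannot be told apart in these values.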

How the data were processed

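RNA was sequenced from sorted populations, 33 samples in all. The authors deposited FPKM values per gene in a single table; the submitters' processing notes name TopHat2, Cuffdiff and the mm10 build, while versions, annotation, strand setting and library normalization are not given in the sources used here. No read counts were at hand, so depth was inferred from the step that 1 fragment makes in 2007 single-transcript genes. Of 33 value columns 30 were matched to a sample by name, and 3 were not used. The table held 37973 genes, 32933 of them with an identifier in GENCODE vM21 (GRCm38, the assembly of mm10), which supplied coordinates.

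The 10 libraries were fitted together with limma 3.58.1 in R 4.3.3 (lmFit, eBayes with a trend) on log2(FPKM + 1), with the gate as the effect and arm and day as a block. Genes needed at least 1 FPKM in at least 2 of the 10 libraries. P-values are two-sided and adjusted by Benjamini-Hochberg over all genes tested, with 0.05 as the threshold. The difference between arms was the interaction of gate and arm in the same fit. The pairing comes from the arm and day in the titles, and it was checked in the values: after removal of the gate means, libraries of a pair correlated at 0.27 to 0.38. Libraries of opposite gates from different pairs reached up to 0.34, and 4 of the 5 Thy1-SSEA1+ libraries correlated best with their own partner. The fits were tested on simulated data with known changes: the gate test recovered larger changes more often than small ones, and the test between arms over all genes recovered none.

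The members, the 32 gene lists and the tests were chosen with earlier results of these data known. Of 600 list entries 594 were found in the table. Genes are named if they had up to the 2 largest differences of a list, past the threshold and with 1 sign in all 5 pairs; if they were among the 8 largest in either direction with a mean of at least 5 FPKM; or if they led the difference between arms. Thy1, Fut4, Fut9, Nanog, Esrrb, Zfp42, the 4 OSKM factors, Dppa2 and Dppa4 are given whatever their result. A few genes that these rules or lists hold are not reported here by name. Other genes of the lists, and Krtdap and S100a14, were named after their values were seen. Promoter windows are those of RefSeq (GRCm38.p6); the POU, SOX and E-box cores searched are spelled out where they are used. The fit was repeated under 0.1 as the pseudocount, with every gene kept, with a mean of at least 5 FPKM, after quantile normalization, with a flat prior variance, unpaired, without each pair, on days 8 and 11, and within each arm. A fit of protein-coding genes alone was added after the data were seen. Tables were handled in Python 3.11.15 with pandas 2.3.3 and figures drawn with matplotlib 3.10.9.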

Additional observations from a re-analysis of the deposited data

Results flagged for a closer look

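Of the results, 8 were picked out because the difference between gates differed between arms. For Dppa2 and Dppa4 the Dppa2/4 pairs all lay below 0 and the control pairs all above 0, with differences between arms of -3.29 and -3.06; over all genes these did not pass (limma, adjusted p = 0.142 and 0.136). In the other cases the limma test of the difference between arms itself passed, with adjusted p-values of 0.0204 for 1110032A04Rik, 0.0043 for AC152922.1, 0.0043 for Snord14a, 0.0139 for AL954388.1, 0.0154 for AC132271.1 and 0.0233 for Mir432. Snord14a, a small nucleolar RNA, was at 30.5, 45.2, 30.2, 0 and 0 FPKM in Thy1-SSEA1+ cells and 31.9, 57.9, 27.5, 92.2 and 73.5 FPKM in Thy1-SSEA1- cells, in the order Dppa2/4 days 8, 11 and 14, then control days 8 and 11. Mir432 was listed at 0 in 6 of the 10 libraries. Such small RNAs are short against the fragments of a library, and their part in the result was not tested.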

How the results depend on the processing

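Genes higher and lower in Thy1-SSEA1+ cells numbered 961 and 1323 with no filter, 1123 and 1254 at a mean of at least 5 FPKM, and 88 and 235 with the Dppa2/4 pairs alone, against 1456 and 1884 as reported; leaving out 1 pair at a time gave 459 to 1378 higher and 797 to 1929 lower genes. Without the replicate block that pairs libraries by arm and day, 366 and 721 passed, and 1084 of these 1087 genes were among the 3340 reported. The pseudocount, quantile normalization, no trend, control pairs alone, days 8 and 11 alone and protein-coding genes alone kept both counts within 1.5 times. With the control pairs alone 3572 genes passed, and these held 2241 of the 3340 reported (67.1%). Of 70 named genes past the threshold, 70 stayed there under the pseudocount, quantile normalization and no trend, 59 with no filter, 43 with no replicate block, 56 to 68 on leaving out a pair, and 30 of 69 with the Dppa2/4 pairs alone. Of 478 list medians under alternatives, 432 moved by less than 1 SD over pairs. The median of 2-cell-like genes could not be had at a mean of at least 5 FPKM or with the control pairs alone, where no gene of the list was left.

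The difference between arms, with 5 genes higher and 2 lower with Dppa2/4, gave 3 and 0 with no filter, 3 and 1 at a mean of at least 5 FPKM, 4 and 1 without the replicate block, 6 and 7 on days 8 and 11 alone, 207 and 76 for protein-coding genes alone, and 3 to 11 and 1 to 7 on leaving out a pair. Those fits differed in the genes, the libraries or the block, and the cause of the changed counts was not tested.

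Directions that turned were those of values not past the threshold. With the Dppa2/4 pairs alone, the gate difference was -0.77 for Dppa2, -0.67 for Dppa4, -0.0205 for Mir432 and 1.56 for 1110032A04Rik. On leaving out 1 pair at a time it was -0.0894 to 1.05 for Dppa2, lowest without the control day 8 pair, and -1.18 to 0.29 for 1110032A04Rik, highest without the control day 11 pair. The difference between arms on leaving out 1 pair was -0.68 to 0.0191 for Fut9, highest without the Dppa2/4 day 8 pair, and -0.59 to 0.11 for Myc, highest without the Dppa2/4 day 14 pair. It was 0.19 for Fut4 with the pseudocount of 0.1, and 0.11 for Myc on days 8 and 11 alone.

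Depth was inferred, not given, and FPKM carries no count, so no counting error stands beside low values. Each population is 1 library.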

Other observations

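Of the 30 epithelial genes, 5 had levels in Thy1-SSEA1+ cells that lay wholly above those in cells that had already switched on the Oct4-GFP reporter: Krt8, Krt19, Dsp, Dsc2 and Esrp2. The ranges of the other 25 overlapped, those of Cdh1, Epcam, Ap1m2, Esrp1, Cldn4 and Cldn6 among them. These are levels over 6 Thy1-SSEA1+, 5 GFP+ and, where given, 8 Thy1+SSEA1- libraries, chosen after their values were seen and not tested. How many of all genes had such ranges was not counted, so the 5 of 30 cannot be called particular to epithelial genes. Krt8 was at 65.6 to 222 FPKM in Thy1-SSEA1+ cells and 6.85 to 23.0 FPKM in GFP+ cells, Krt19 at 23.4 to 183 FPKM in Thy1-SSEA1+ cells and 1.297 to 10.3 FPKM in GFP+ cells, and the desmosomal protein gene Dsp at 13.6 to 43.2 FPKM in Thy1-SSEA1+ cells and 1.94 to 6.41 FPKM in GFP+ cells. S100a14, a calcium-binding protein of epithelia, had medians of 23.0 FPKM in Thy1-SSEA1+ cells and 1.47 FPKM in GFP+ cells. Krtdap, a keratinocyte protein, was at 31.3 to 158 FPKM in Thy1-SSEA1+ cells and 1.94 to 31.0 FPKM in GFP+ cells. The trophoblast factor Elf5 was at 1.31 to 7.47 FPKM in Thy1-SSEA1+ cells and 0.28 to 1.29 FPKM in GFP+ cells.

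The fibroblast genes Vim and Cd44 were lower in Thy1-SSEA1+ than in Thy1-SSEA1- cells, and their levels in Thy1-SSEA1+ cells lay above those in GFP+ cells. Vim was at 452 to 1742 FPKM in Thy1-SSEA1+ cells, 181 to 202 FPKM in GFP+ cells and 1642 to 7676 FPKM in Thy1+SSEA1- cells. Cd44 was at 12.5 to 56.7 FPKM in Thy1-SSEA1+ cells, 2.11 to 5.57 FPKM in GFP+ cells and 91.2 to 161 FPKM in Thy1+SSEA1- cells. The positional gene Hoxc10, which did not pass between the Thy1- gates (-0.45), was at 6.22 to 13.3 FPKM in Thy1-SSEA1+ cells, 0.302 to 1.79 FPKM in GFP+ cells and 8.23 to 14.3 FPKM in Thy1+SSEA1- cells. The imprinted gene Dlk1 was at 13.4 to 48.0 FPKM in Thy1-SSEA1+ cells, 1.21 to 3.004 FPKM in GFP+ cells and 5.27 to 85.2 FPKM in Thy1+SSEA1- cells.

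Postn and Gzme were lower in Thy1-SSEA1+ cells than in Thy1-SSEA1- cells. Postn was at 111 to 410 FPKM in the Thy1-SSEA1- libraries of the pairs, against 18.8 to 149 FPKM in Thy1+SSEA1- cells, and these ranges overlapped. Gzme was at 15.7 to 56.2 FPKM in those Thy1-SSEA1- libraries, against 1.07 to 12.1 FPKM in Thy1+SSEA1- cells, with no overlap. Windows around the start site were at hand for 22 of the 34 pluripotency genes that passed, Pou5f1 and Sox2 included. The SOX core AACAATG stood in that of Pou5f1 alone, and in 3.78% of all windows. The E-box CACGTG stood in that of Zfp296 alone, and in 7.15% of all windows. The E-box CAGGTG, bound by Snai and Zeb repressors, stood in the windows of 10 of these 22 genes and in 20.2% of all windows. The last motif was chosen after the data were seen, and no share was tested. A gene was counted if any of its windows matched, whereas the percentages are over single windows, so these are unlike measures.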
